A study of Homo sapiens with 3 samples.

Results

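The 14-3-3 proteins are small acidic adaptors that form dimers and bind partner proteins at phosphorylated serine or threonine residues, and by doing so they hold kinases, phosphatases and transcription factors in a given state or compartment. In human cells the family is encoded by YWHAB (beta), YWHAE (epsilon), YWHAG (gamma), YWHAH (eta), YWHAQ (theta), YWHAZ (zeta) and SFN (sigma). Most isoforms are abundant in nearly every cell type, whereas SFN, also called stratifin, is mainly known from epithelial cells and as a gene that p53 induces. Their mRNAs were followed here as targets of editing by RBFOX2-APOBEC1, and the members were the clusters whose deposited gene name was exactly 1 of these 7 symbols. They numbered 113 of 40843 clusters and lay in 6 of the 7 genes, out of 9904 gene names in the series.

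The series holds 3 replicates of 1 condition. HEK293T cells (the HEK293XT line, made from embryonic kidney) were labelled WT in genotype and expressed, on induction with doxycycline, a fusion of the splicing regulator RBFOX2 with the cytidine deaminase APOBEC1. The time label was 72 h in each sample. RBFOX2 binds RNA, mainly at GCAUG-type motifs, and the deaminase then turns nearby C bases into U, so that C-to-U changes in RNA-seq reads are read as marks of where the fusion was. Per the treatment label and the study's methods, the construct was introduced by transient transfection, although the growth protocol speaks of stable lines. No sample used here lacked the fusion or carried APOBEC1 alone, so editing that does not depend on RBFOX2 could not be subtracted from any value below.

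Editing was deposited as clusters, that is, stretches of transcript in which edited C bases were denser than a background rate, which was averaged over all exons or all introns and set separately at low read depth. For each cluster the edit fraction divides the edited C bases by every C base sequenced in its reads, and the share of edited reads is the number of reads with an edit over all reads of the cluster. Only clusters that passed the filter of the authors were available, with mean read depths from 1.29 to 8012 reads per base over the series. In the 3 replicates there were 14295, 15181 and 11367 clusters in all, which held 1637592, 1731304 and 1104249 reads. Low depth goes with a high edit fraction among clusters that pass such a filter, so depth is given beside the edit fractions of genes.

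The 14-3-3 genes held 36, 41 and 36 clusters in replicates 1, 2 and 3 (37.7 ± 2.89, SD, n = 3). These made up 0.252%, 0.270% and 0.317% of all clusters, but they carried 1.36%, 0.977% and 1.40% of all edited bases (1.25% ± 0.234, SD, n = 3). The family also took 2.33%, 1.63% and 2.24% of all covered C bases. The family therefore took a larger share of the edited bases than of the clusters, and a still larger share of the covered C bases, in each replicate.

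SFN had no cluster in any replicate. In the files used here that says only that no stretch of this gene passed the filter, since transcripts without a cluster are not listed and their depth is unknown. The other genes each had at least 3 clusters in every replicate. YWHAZ, the zeta isoform, had the most clusters (8, 10 and 10 in replicates 1, 2 and 3), followed by YWHAG (gamma) with 7, 9 and 7 and YWHAQ (theta) with 7, 7 and 6. YWHAB (beta) had 6, 5 and 5 clusters, YWHAE (epsilon) had 5, 4 and 5, and YWHAH (eta) had 3, 6 and 3.

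Edited bases were distributed unlike the clusters. YWHAE had 820, 655 and 753 edited bases, which was 59.6%, 60.1% and 69.7% of those of the family from 13.9%, 9.76% and 13.9% of its clusters. Among all genes with a cluster (6999, 7188 and 6037), it ranked 3, 9 and 6 by edited bases. YWHAZ followed with 258, 170 and 93 edited bases and ranks of 25, 58 and 97. YWHAQ had 124, 76 and 105 and YWHAG had 56, 81 and 78 edited bases. The lowest means were those of YWHAB, with 64, 42 and 29, and of YWHAH, with 54, 66 and 23. The replicate values of YWHAE lay above those of every other member, and those of YWHAZ overlapped with those of YWHAQ. YWHAE also stood at ranks 4, 7 and 5 among all genes by covered C bases, so its place among edited genes was close to its place by coverage.

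Depth also differed between the genes. The mean read depth over the clustered bases was 772, 806 and 588 reads in YWHAE and 206, 244 and 167 reads in YWHAZ. It was 187, 118 and 126 reads in YWHAQ and 99.5, 107 and 105 reads in YWHAH. YWHAB had 101, 61.3 and 45.3 reads and YWHAG had 76.9, 74.4 and 37.5 reads. These depths are those of regions that passed the filter and are not expression levels of the genes.

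The pooled edit fraction, which is all edited bases of a gene over all its covered C bases, was lowest in the 2 deepest genes. YWHAE had 0.495%, 0.501% and 0.576% in replicates 1, 2 and 3 (0.524% ± 0.0446, SD, n = 3). YWHAZ had 0.522%, 0.552% and 0.514% (0.529% ± 0.0201, SD, n = 3), and the ranges of both genes overlapped. YWHAH had 0.713%, 0.724% and 0.755% (0.731% ± 0.0218, SD, n = 3), above every value of YWHAE and YWHAZ. YWHAQ had 0.889%, 0.786% and 0.722% (0.799% ± 0.0841, SD, n = 3), which overlapped with YWHAH. YWHAB had 0.789%, 1.03% and 0.935% (0.919% ± 0.122, SD, n = 3), above YWHAH and overlapping with YWHAQ.

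YWHAG had the largest mean and the largest spread, with 0.875%, 0.799% and 1.92% (1.20% ± 0.625, SD, n = 3). Replicate 3 lay apart from the other two. In that replicate, 16 of the 78 edited bases of YWHAG came from 2 edited reads of 1 cluster at chr7:75956431-75956521, and without this cluster the pooled value was 1.60%. Replicate 3 was also the shallowest for this gene, at 37.5 reads per base. Whether depth or these reads account for the value was not tested.

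Of the 15 pairs of the 6 genes, 10 had ranges that did not overlap in pooled edit fraction. No such share over all genes of the series stands beside this count, and the pairs share the same 6 genes. The count therefore describes these genes only and does not set them apart from others. No neighbours in the order YWHAE, YWHAZ, YWHAH, YWHAQ, YWHAB, YWHAG were apart except YWHAZ and YWHAH. The order depends on pooling, since the mean over a gene's clusters, in which shallow clusters weigh as much as deep ones, was 1.51% ± 0.775 for YWHAE and 1.91% ± 0.709 for YWHAB (SD, n = 3), now the highest. No p-value stands beside these pairs, because an exact permutation test of 3 values against 3 cannot go below 0.10.

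**Figure D1:**
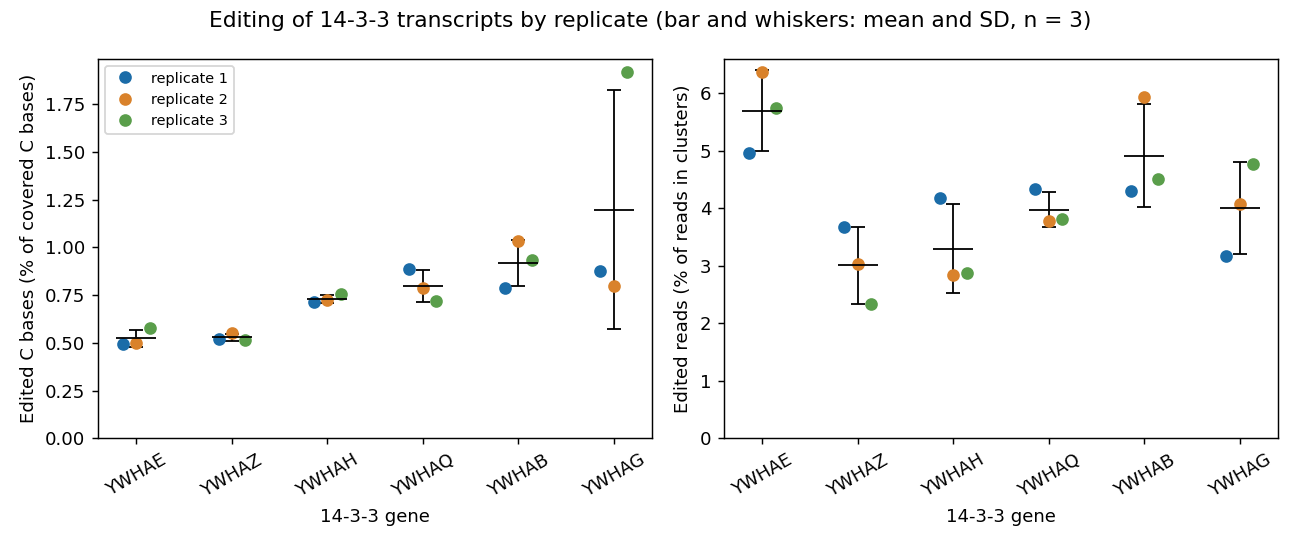
Edited C bases as % of covered C bases (left) and edited reads as % of reads in clusters (right) for the 6 14-3-3 genes with clusters, with 1 point per replicate and a bar and whiskers for the mean and SD of 3 replicates. YWHAE is lowest on the left (0.524%) and highest on the right (5.69%), and replicate 3 of YWHAG (1.92%) lies apart on the left.

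The order changed when reads were counted in place of bases. In YWHAE 4.96%, 6.37% and 5.74% of the reads in clusters carried an edit (5.69% ± 0.705, SD, n = 3), the highest mean of the family. In YWHAZ it was 3.67%, 3.02% and 2.33% (3.01% ± 0.670, SD, n = 3), the lowest, and no value reached those of YWHAE. YWHAB had 4.29%, 5.93% and 4.50% (4.91% ± 0.893, SD, n = 3), overlapping with YWHAE. Within each replicate, however, YWHAE was above YWHAB. The means of YWHAG, YWHAQ and YWHAH were 4.0% ± 0.801, 3.97% ± 0.311 and 3.30% ± 0.767 (SD, n = 3). By this measure 7 of the 15 pairs did not overlap, and in 4 of them YWHAE was the higher gene. Here too no share over all genes stands beside the count. A read counts as edited with an edit anywhere in the cluster, and YWHAE had the longest clusters, but the part of length in this order was not tested.

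An edited read carried more than 1 edit on average in each gene. The numbers were 1.86, 1.87 and 2.05 edited bases per edited read in YWHAE and 1.83, 1.77 and 1.55 in YWHAZ. YWHAG had 2.07, 1.98 and 3.25, YWHAH 1.74, 2.06 and 1.77, YWHAQ 1.44, 1.52 and 2.14, and YWHAB 1.49, 1.5 and 1.53. Over the family they were 1.79, 1.82 and 2.03, against 1.59, 1.67 and 1.66 over all clusters. The family stayed above the whole series without YWHAE, at 1.70, 1.76 and 1.99, and the value of replicate 3 includes the YWHAG cluster described above.

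Positions within the genes were shared by nearly all members. Deposited exon numbers followed genomic position in each of the 1811 plus-strand and 1719 minus-strand genes that had clusters in several exons, so exon 0 of a minus-strand gene is the exon at its 3′ end. YWHAE (chromosome 17), YWHAG (chromosome 7), YWHAQ (chromosome 2) and YWHAZ (chromosome 8) lie on the minus strand. YWHAB (chromosome 20) and YWHAH (chromosome 22) lie on the plus strand, and all exonic clusters of these were in exon 16 and exon 10, taken here as the 3′ exon because no higher number held a cluster. Coordinates are given as deposited, on the hg19 build named in the processing notes of the submitters, with the length of a cluster equal to its end minus its start.

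In this 3′ exon lay 33 of 36, 41 of 41 and 33 of 36 member clusters in replicates 1, 2 and 3, together 107 of 113 (94.7%). They held 98.5%, 100% and 95.7% of the edited bases of the family. In YWHAB and YWHAH this exon was itself picked from these clusters. Their part of the counts therefore does not show that the exon is the last one. For the 4 minus-strand genes the share in exon 0 was 92.6%, 100% and 89.3% of clusters, against 64.7%, 59.8% and 61.7% of all exonic clusters on minus-strand genes. The last exon of these genes contains most of the 3′ untranslated region, but no hg19 gene models were used, so the clusters were not divided into coding and untranslated parts. The libraries were labelled polyA RNA, and how read coverage fell along these transcripts outside clusters was not analysed here.

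Clusters elsewhere in the genes were few. In YWHAE, exon 4 held a cluster in replicate 1 (chr17:1257505-1257535) with 8 edited of 797 reads, exon 6 held one in replicate 3 (chr17:1264446-1264506) with 13 of 720, and exon 14 held one in replicate 3 (chr17:1303477-1303522) with 2 of 36. In the first and second of these the edit fraction was 0.311% and 0.349%. In YWHAQ, exon 4 held a cluster from position 9728324 in replicates 1 and 3, with edit fractions of 0.748% and 0.754%, and replicate 2 had none there. The only intronic cluster was in intron 7 of YWHAB (chr20:43531629-43531659) in replicate 1, where 1 edited base of 11 covered C bases gave 9.09%, the highest edit fraction of the family. There the deposited depth was 84.5 reads per base while each C base was covered by 3.67 reads on average.

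**Figure D2:**
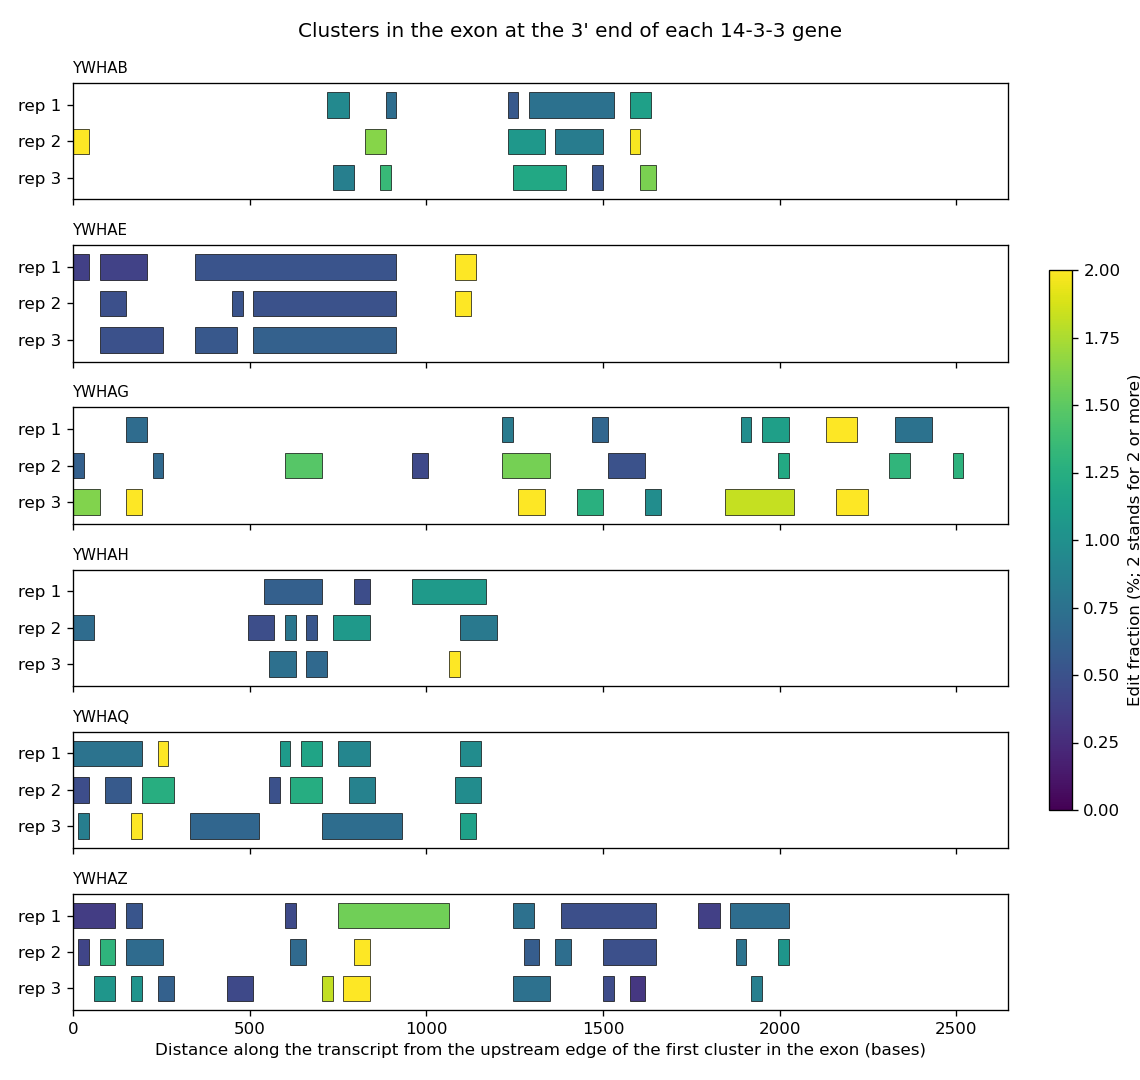
Clusters in the 3′ exon of the 6 genes, with 1 row per replicate, drawn 5′ to 3′ as distance in bases from the upstream edge of the first cluster. Box length is cluster length and colour is the edit fraction in %, with 2% and above in the same colour, and the dark long boxes of YWHAE (570, 405 and 405 bases) recur in the 3 replicates whereas those of YWHAG seldom line up.

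Within the 3′ exon the clusters of YWHAE spanned 1140 bases and those of YWHAQ 1155, YWHAH 1200, YWHAB 1650, YWHAZ 2025 and YWHAG 2520 bases. The longest YWHAE cluster had 570, 405 and 405 bases and ranked 1, 7 and 2 by length among all clusters of replicates 1, 2 and 3. It contained 119, 100 and 100 C bases, ranks 1, 3 and 2. The longest cluster of YWHAZ had 315, 150 and 105 bases. The median length over the family was 60, 45 and 60 bases, against 45 bases in each replicate of the series, so the long cluster of YWHAE was not typical of its family.

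Recurrence was scored for each cluster as a same-strand overlap, 1 base or longer, with clusters in both other replicates. Such clusters, called found in all 3 replicates, were 17 of 36, 18 of 41 and 18 of 36 member clusters (47.2%, 43.9% and 50%, mean 47.0% ± 3.05, SD, n = 3). Over the series they were 10.6%, 9.86% and 13.1% of clusters. Member clusters were deeper than the rest, with a median depth of 139, 106 and 89.2 reads against 25.1, 24.7 and 21.1 reads. Fewer member clusters rested on a single read, since 4 of 113 of them had 1 edited read, against 12469 of 40843 over the series.

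Compared within classes of edited reads, the pooled replicates gave a less uniform picture. Among clusters with 11 or more edited reads, 77.8% of 27 member clusters and 79.6% of 1689 clusters of the series were found in all 3 replicates. Among those with 4 to 10, it was 50% of 46 against 26.5% of 6771. Among those with 2 or 3, it was 22.2% of 36 against 5.45% of 19914. Pooled in this way, the family lay beside the series in the class with the most edited reads and above it in the classes with 2 to 10. In replicate 1 alone, however, 0 of 8 member clusters with 2 or 3 edited reads were found in all 3 replicates, against 4.52% of the series. Several clusters of a class come from the same exon and do not count as independent, so these shares were not tested.

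Within classes of read depth, pooled in the same way, the family was above the series from 10 reads per base upward. At 10 to 50 reads 26.1% of 23 member clusters were found in all 3 replicates, against 6.64% of the series, and at 50 to 100 reads 42.9% of 28, against 18.1%. At 100 to 200 reads it was 52.6% of 38 against 29.7%, and at 200 to 500 reads 68.8% of 16 against 41.5%. At 500 reads or more the shares were 66.7% of 6, all of them clusters of YWHAE, and 54.1%. In replicate 1 alone, however, 1 of 3 member clusters of this class was found in all 3 replicates, against 54.7% of the series. Below 10 reads neither of 2 member clusters recurred.

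**Figure D3:**
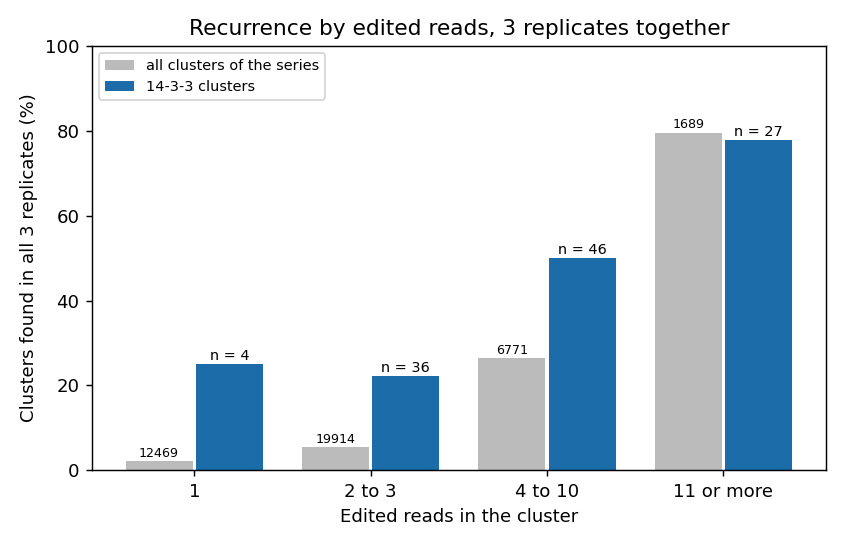
Share of clusters found in all 3 replicates (%) by the number of edited reads in the cluster, for all clusters of the series (grey) and 14-3-3 clusters (blue), with the number of clusters above each bar and the replicates pooled. Both bars rise to near 80% at 11 or more edited reads (79.6% and 77.8%), and the blue bar is higher at 4 to 10 (50% against 26.5%).

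The criterion of overlap mattered for the family. When at least 50% of each cluster had to be shared, 5, 2 and 3 member clusters remained (13.9%, 4.88% and 8.33%), against 4.90%, 4.74% and 6.25% over the series. Of the 5760 bases that any member cluster covered, 1080 (18.8%) were covered in all 3 replicates, against 3.66% over the series. YWHAE had 495 of 990 bases in common (50%), while YWHAG had 30 of 1155 (2.60%). YWHAB, YWHAZ, YWHAQ and YWHAH lay between with 19.5%, 16.7%, 13.2% and 11.9%. Most member clusters found in all 3 replicates thus met by less than 50% of a cluster.

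Clusters that overlapped across replicates were merged into 49 member loci, of which 18 were found in 3 replicates, 12 in 2 and 19 in 1. The share in 3 replicates was 36.7%, against 1586 of 33244 loci (4.77%) in the series. Neither this share nor that of bases was matched for depth or edited reads, and member clusters were deeper than the series. By gene, 6 of 10 loci of YWHAZ, 3 of 6 of YWHAB, 2 of 4 of YWHAH, 3 of 9 of YWHAQ, 2 of 7 of YWHAE and 2 of 13 of YWHAG were found in all 3. Reads of a locus are summed over its clusters, so a read may count more than once, and the bases covered differed between replicates. PCR copies were not marked, so the Wilson 95% intervals below cover counting error only.

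The deepest of these loci was in YWHAE at chr17:1247851-1248421. Edited reads there were 364 of 5582 in replicate 1 (6.52%, interval 5.90 to 7.20), 294 of 4463 in replicate 2 (6.59%, 5.90 to 7.35) and 300 of 4347 in replicate 3 (6.90%, 6.19 to 7.69). Its edit fraction was 0.518%, 0.502% and 0.606% at depths of 922, 911 and 730 reads per base. The 3 intervals overlapped. Two-sided Fisher's exact tests gave unadjusted p of 0.903 for replicates 1 and 2, 0.466 for 1 and 3 and 0.581 for 2 and 3. No difference in edited reads between replicates was detected there. A second YWHAE locus lay upstream on the transcript at chr17:1248511-1248691, with 3.89%, 5.26% and 4.04% edited reads and edit fractions of 0.397%, 0.487% and 0.495%. In each replicate the first locus was above the second in both measures, although its clusters were also longer.

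In YWHAZ the deepest locus was chr8:101931258-101931543. Edited reads were 75 of 1409 (5.32%, interval 4.27 to 6.62), 65 of 1234 (5.27%, 4.15 to 6.66) and 24 of 992 (2.42%, 1.63 to 3.57) in replicates 1, 2 and 3. Replicate 3 lay below the other two and outside their intervals. Its clusters there covered 75 bases, against 270 and 195 bases, and the adjusted p of Fisher's exact test was 0.0862 against replicate 1 and 0.113 against replicate 2, over the limit of 0.05.

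The other YWHAZ loci had fewer edited reads. Those at chr8:101930883-101931048 and chr8:101931558-101931663 had edit fractions of 0.708%, 0.880% and 0.855% and of 0.742%, 0.578% and 0.738%. Those at chr8:101932623-101932758 and chr8:101932788-101932908 had 0.525%, 0.694% and 0.711% and 0.356%, 0.653% and 1.05%. The sixth, chr8:101931843-101932158, stood apart with 1.57%, 4.84% and 4.76%, at depths of only 42.9, 10.6 and 11.7 reads, and its last 2 values rested on 2 of 25 and 4 of 27 reads.

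In YWHAQ the locus chr2:9724386-9724611 was the deepest of the 3 found in all replicates. Edited reads were 24 of 527, 17 of 289 and 15 of 316 (4.55%, 5.88% and 4.75%), with edit fractions of 0.919%, 0.882% and 0.710%. The locus chr2:9724161-9724236 had 0.961%, 0.962% and 1.14%, and chr2:9725121-9725316 had 0.760%, 0.514% and 1.07%. At the first of these 3 the shares of edited reads lay within each other's intervals. At chr2:9724161-9724236 edited reads ran from 16 of 184 in replicate 1 (8.70%) to 3 of 116 in replicate 2 (2.59%). At chr2:9725121-9725316 they ran from 24 of 453 in replicate 1 (5.30%) to 9 of 393 in replicate 2 (2.29%).

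In YWHAB, at chr20:43536703-43537003, edited reads were 29 of 553, 20 of 294 and 8 of 222 (5.24%, 6.80% and 3.6%) and edit fractions were 0.714%, 0.92% and 0.876%. The loci on either side, chr20:43536298-43536388 and chr20:43537048-43537123, had at most 6 edited reads in a replicate. Their edit fractions averaged 1.23% ± 0.475 and 1.57% ± 0.428 (SD, n = 3). At chr20:43536298-43536388 edited reads were 1 of 132, 5 of 78 and 2 of 63. In YWHAH, at chr22:32352846-32353071, edited reads were 12 of 333, 18 of 637 and 11 of 394 (3.6%, 2.83% and 2.79%), and edit fractions 0.604%, 0.556% and 0.710%. The other YWHAH locus, chr22:32353311-32353551, varied more, with 1.08%, 0.811% and 2.22%, the last from 2 edited of 59 reads.

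YWHAG had 2 loci in all 3 replicates. At chr7:75956641-75956836 the edit fraction was 1.10%, 1.20% and 1.82%, with 9 of 203, 1 of 41 and 6 of 93 reads edited. At chr7:75957331-75957466 it was 0.826%, 1.58% and 2.60%, from 2 of 79, 6 of 130 and 4 of 39. The depth at the second was 71.8, 53.3 and 18.3 reads, highest where the edit fraction was lowest.

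Over the 18 loci, none of the 54 comparisons between 2 replicates passed an adjusted p of 0.05 in two-sided Fisher's exact tests of edited against other reads, and 5 had an unadjusted p under 0.05. These 5 lay at chr8:101931258-101931543 in YWHAZ, chr2:9724161-9724236 and chr2:9725121-9725316 in YWHAQ, and chr20:43536298-43536388 in YWHAB. Over the series 13 of 4758 comparisons passed (0.273%, with 0.252% for replicates 1 and 2, 0.315% for 1 and 3 and 0.252% for 2 and 3), and 5.13% had an unadjusted p under 0.05. Most of the 18 loci had few edited reads, so differences within their wide intervals were not detectable at this depth.

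**Figure D4:**
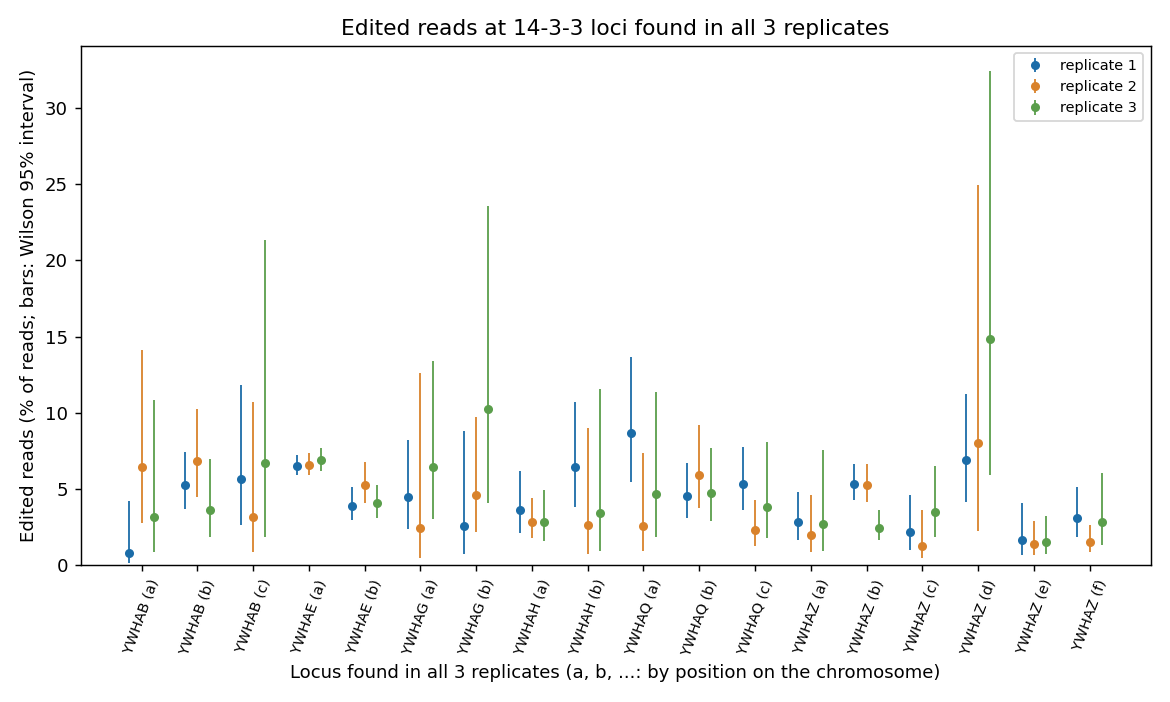
Edited reads as % of all reads at the 18 loci found in all 3 replicates, with 1 point per replicate and bars for the Wilson 95% interval, loci of a gene lettered by position on the chromosome. The intervals are narrow at the first YWHAE locus (6.52%, 6.59% and 6.90%) and wide at the shallow locus YWHAZ (d) (6.90%, 8.0% and 14.8%).

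Single clusters of the family had low edit fractions beside the series. The median over member clusters was 0.746%, 0.789% and 0.915% in replicates 1, 2 and 3 (0.816% ± 0.0877, SD, n = 3), against 1.64%, 1.65% and 1.80% over all clusters. Depth moved with it. At 50 to 100 reads per base the median was 1.01% for 28 member clusters and 0.923% for all. At 100 to 200 reads it was 0.689% for 38 member clusters and 0.678% for all, and at 200 to 500 reads it was 0.487% for 16 and 0.544% for all. Within a depth class the family therefore lay near the series, while it held 91.7%, 78.0% and 63.9% of its clusters at a depth of 50 or more, against 29.1%, 27.9% and 24.6%.

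**Figure D5:**
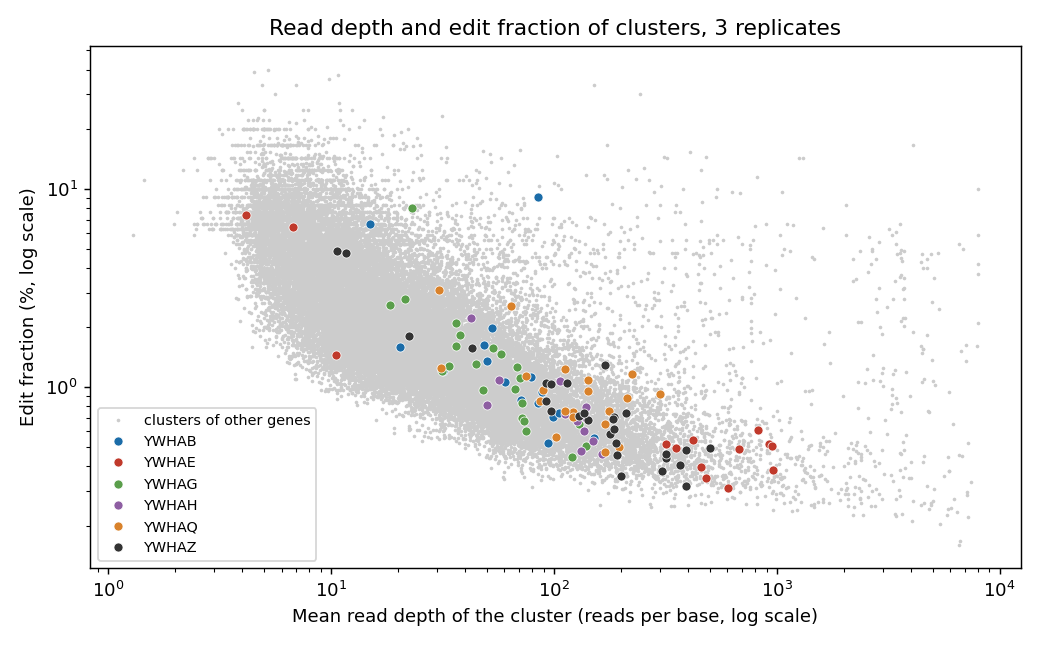
Edit fraction (%, log scale) against mean read depth (reads per base, log scale) for all clusters of the 3 replicates (grey), with 14-3-3 clusters coloured by gene. Member clusters mostly run along the falling band of the series, from YWHAE clusters of 4.15 and 6.75 reads at the upper left to those of 958 and 955 reads at the lower right. Far above the series median for their deposited depth lie a YWHAB cluster of 84.5 reads (9.09%) and a YWHAG cluster of 23.0 reads (8.04%). In the YWHAB cluster each C base was covered by only 3.67 reads on average, so its place on the depth axis is uncertain.

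By edited reads the family stood on the other side of the series. Over all its clusters the family had 4.44%, 4.74% and 4.57% edited reads, above 3.88%, 3.87% and 4.2% for all clusters. Without YWHAE it had 3.89%, 3.47% and 3.15%, which was beside the series in replicate 1 and below it in replicates 2 and 3. The share of C among cluster bases was 17.9%, 19.1% and 18.9% in the family and 19.2%, 19.7% and 20.0% in the series. YWHAE had the highest mean, 22.3% ± 1.53 (SD, n = 3), and was above the series in each replicate.

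Scores lie between 0 and 1 and, per the study, place a cluster's edit fraction in a distribution set by the mean over clusters. They did not follow the edit fraction alone. In replicate 1 the YWHAB cluster at 9.09% scored 0.980 and the longest YWHAE cluster, at 0.518%, scored 1. A score of at least 0.99 was reached by 27, 27 and 26 clusters (75.0%, 65.9% and 72.2%), against 60.8%, 60.1% and 61.2% over the series. A score of 0.95 or more was reached by 35 of 36, 40 of 41 and 35 of 36 member clusters, beside 13678 of 14295, 14635 of 15181 and 11021 of 11367 in the series, so at this limit the family did not stand apart. The 3 below it were clusters of YWHAB, YWHAG and YWHAH.

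Processed copies of these genes could draw reads from their parents. Of names that consist of a member symbol with a copy number, the series held YWHAZP2 alone, with 1 edited of 7 reads in replicate 2 and 2 of 5 in replicate 3. The 10 YWHAZ clusters of each of these replicates held 3178 and 2576 reads. Both are reads of clusters that passed the filter, and the reads of copies without a cluster are unknown. Whether copies drew reads from their parents was not tested.

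The genes closest to YWHAE in covered C bases and edited bases, out of 3754 with clusters in all 3 replicates, were RPL30, RPL36A and the readthrough name RPL36A-HNRNPH2, which includes the clusters of RPL36A. RPL30, which encodes a protein of the large ribosomal subunit, had 653, 751 and 819 edited bases and pooled edit fractions of 0.442%, 0.463% and 0.565%. The log10 distance to YWHAE was 0.0274. RPL36A, another protein of the large subunit, had 0.381%, 0.443% and 0.464% at a distance of 0.0953. The pooled edit fraction is the ratio of the quantities by which these genes were chosen, so its nearness to that of YWHAE follows from the choice.

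A chosen list of genes for proteins known to bind 14-3-3 was set beside the family, and the clusters of these genes were shallower at the median. Of 32 such client genes, 12 had clusters in all 3 replicates, 7 in 2, 7 in 1 and 6 in none, the last being KSR1, BAD, TSC2, HDAC7, IRS1 and HDAC4. The depth of these 6 is unknown. Over the series, 3754 of 9904 gene names had clusters in all 3 replicates, where names without any cluster are not counted. The counts of the clients are therefore not read as a trait of these genes. Their 141 clusters had a median depth of 19.5 reads, against 112 in the 14-3-3 genes and 23.8 in the series. Of these clusters 12.8% were found in all 3 replicates, near the 11% of all clusters in the series, and the genes that held them included CDC25A, HDAC5, MARK3 and WEE1.

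WEE1, a kinase that restrains entry into mitosis, had 35, 52 and 6 edited bases in replicates 1, 2 and 3. CDC25A, a phosphatase that drives the cell cycle, had 27, 18 and 41. FOXO3, a transcription factor, had 17, 15 and 11, and CBY1, a beta-catenin antagonist, had 11, 7 and 19. Mean numbers of edited bases were 31 in WEE1, the highest of the clients, and 45 in YWHAB, the lowest of the 14-3-3 genes with clusters.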

How the data were processed

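RNA editing was measured by RNA-seq in 3 replicates of HEK293T cells expressing RBFOX2-APOBEC1, and groups and replicate numbers were taken from the sample labels. The study calls them biological replicates, and the labels do not name separate cultures. The submitters' processing notes name STAR and hg19, without a version of STAR, and the authors called edited positions with SAILOR and clusters with FLARE. The file names give 0.1 as the adjusted p threshold and 15 bases as the distance for merging windows.

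Per cluster, the authors deposited whole-number counts, without scaling, of reads, edited reads, edited bases, C bases and their coverage. The edit fraction and the fraction of edited reads deposited by the authors were recomputed from these counts in all 40843 clusters and are printed as percentages. The deposited mean depth is a coverage value in reads per base, without correction for library size. The score, also deposited, is a probability between 0 and 1. Reads in clusters are not library depth, and windows that failed the filter were not analysed.

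Sums, medians and shares per replicate, with mean and SD over 3 replicates, were computed in Python (3.11.15) with pandas (2.3.3) and NumPy (2.4.6). Tests used SciPy (1.17.1) and plots matplotlib (3.10.9). Same-strand clusters were matched where they shared 1 base or more. Edited reads have Wilson 95% intervals, and pairs of replicates were compared at loci found in all 3 with two-sided Fisher's exact tests, Benjamini-Hochberg adjusted over all 1586 loci and 3 pairs, after the script had been tested on simulated data. The depth of a locus sets the precision of its value. All 7 genes and every locus found in all 3 replicates were named, together with the 3 genes nearest to the member with the most edited bases (Euclidean distance of log10 covered C bases and log10 edited bases), copies of members, and the 5 of 32 client genes with the most edited bases, of which 1 is not reported here. The members and lists were chosen with earlier results of these data known. Alternatives were a minimum score of 0.95 or 0.99, a minimum depth of 50, at least 2 edited reads, 50% overlap, means over clusters, shares of edited reads, tests of edited bases, and leaving out each replicate in turn. Leaving out YWHAE, or 1 cluster of YWHAG, was chosen after seeing the data.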

Additional observations from a re-analysis of the deposited data

How the results depend on the processing

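The values below are means over 3 replicates. At a minimum score of 0.99 the share of member clusters found in all 3 replicates became 37.5%, against 47.0%, and the pooled edit fraction of YWHAZ 0.563%, against 0.529%. At a minimum depth of 50 reads the share of edited bases in the family became 1.99%, against 1.25%, the median edit fraction 0.714%, against 0.816%, and YWHAZ 0.503%. With 50% overlap the share found in all 3 replicates was 9.03%. The mean over clusters was 1.30% in place of the median. Without YWHAE, a setting chosen after seeing the data, the family held 0.455% of all edited bases. Means of cluster edit fractions in place of pooled ones were 1.91% for YWHAB, 1.51% for YWHAE and 1.59% for YWHAG. They were 0.885% for YWHAH, 1.07% for YWHAQ and 1.00% for YWHAZ. By these means YWHAE was no longer the lowest and YWHAB, not YWHAG, was the highest. The YWHAB mean includes clusters of 1 edited base each, at 9.09% in replicate 1 and 6.67% in replicate 2. The YWHAE mean includes clusters of 2 edited reads each, at 6.45% in replicate 1 and 7.41% in replicate 2. Edited reads over all reads, which is another quantity, gave 4.91% for YWHAB, 5.69% for YWHAE, 4.0% for YWHAG, 3.30% for YWHAH, 3.97% for YWHAQ and 3.01% for YWHAZ. Fisher's exact test called 79 of 4758 comparisons over the series with edited bases and 7 of 2583 with 50% overlap, against 13 of 4758, and 0 of 54, 18 and 54 member comparisons, while 5 had an unadjusted p under 0.05 in the main setting. The causes were not tested.

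Leaving out 1 replicate in turn gave 53.6 to 71.1% found in both remaining replicates, which is an easier condition than 3. It gave 36 to 38.5 clusters, 1.17 to 1.38% of edited bases and medians of 0.767 to 0.852%. The pooled edit fraction ranged over 0.862 to 0.984% for YWHAB, 0.498 to 0.539% for YWHAE, 0.719 to 0.739% for YWHAH, 0.754 to 0.838% for YWHAQ, 0.518 to 0.537% for YWHAZ and 0.837 to 1.40% for YWHAG, whose mean rests on replicate 3 (0.837% without it). A mean of 3 values cannot move by more than its spread when 1 is left out, so these ranges show no stability. Of 82 values under the other alternatives, 43 moved by less than the spread between replicates and 39 by more, or by over 1.5 times for counts. Among the 39 are 18 locus values in which the share of edited reads replaced the edit fraction. That is another quantity on another scale, so these values had to move. The same replacement moved the value of each gene, so the counts do not measure stability. All samples belong to 1 group, so no groups could be compared. Genes share the same 3 replicates, but their ranges were compared without pairing by replicate. Depth limits the precision at most loci, and only clusters past the filter were analysed.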
